A study of Mus musculus with 10 samples.

Results

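The phagocyte NADPH oxidase was followed through 5 of its subunit genes, Cybb, Cyba, Ncf1, Ncf4 and Rac2, which were taken by name from the 32285 genes of the mouse count matrices. All 5 were measured in every sorted population, and all 5 passed the filter on low counts. The enzyme passes electrons from NADPH across a membrane to oxygen, which gives superoxide inside phagosomes or at the cell surface. Cybb encodes the catalytic subunit, and Cyba its membrane partner, which together form flavocytochrome b. At rest the organiser protein encoded by Ncf1 and the phosphoinositide-binding protein encoded by Ncf4 lie in the cytosol, and they move to the membrane on activation. The small GTPase encoded by Rac2, found mainly in blood cells, completes the active complex in its GTP-bound form. Inherited loss of the oxidase leaves phagocytes unable to kill certain bacteria and fungi, the condition known as chronic granulomatous disease.

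LysoDCs are lysozyme-expressing dendritic cells of monocyte origin under the epithelium of Peyer's patches, the lymphoid follicles of the small intestine, where they take up particles and bacteria. The study used droplet single-cell mRNA sequencing (10x 3' counts) with antibody hashtags that record the sort gate of each cell. Dataset 1 pooled Peyer's patches of 30 mice and blood of 20 mice in 1 library, and dataset 2 pooled Peyer's patches of 20 mice and blood of 18 mice. All donors were female C57BL/6Rj mice, whose age is not given in the sources used here. The patch donors were untreated, whereas the blood donors received clodronate-loaded liposomes intravenously 9 days before collection, a treatment meant to raise the number of double-negative blood cells.

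Dataset 1 held follicular, immature, intermediate and mature LysoDCs (621, 655, 983 and 455 cells used), immature and maturing cDC2s (970 and 261 cells, conventional type 2 dendritic cells), Ly6C+ monocytes (931 cells), CD43+ monocytes (663 cells) and CD115hi cells with neither Ly6C nor CD43, called double-negative or DN blood cells (1678 cells). In dataset 2 the LysoDC gates shared hashtags and were kept as 1 population (681 cells), beside 4971 DN blood cells, 866 Ly6C+ monocytes and 952 CD43+ monocytes. The DN cells of dataset 2 were sorted as CCR2+ and CCR2- gates that carry 1 hashtag, and they are merged here. Per the labels, CD43+ monocytes, each DN gate and Ly6C+ monocytes of dataset 2 were in 4 different libraries, each with LysoDCs of 1 gate, so in that dataset blood population and library cannot be told apart. Patch cells were released with collagenase II and DNase and enriched on CD11c, and blood cells were not, so tissue, clodronate treatment and handling cannot be told apart in any comparison of LysoDCs with blood cells. Animals were pooled before sorting, so the spread between single mice is not known. Counts were summed over cells, and each population measured in both datasets therefore gave 2 sums, 1 for each pool of mice. The hashtag call set the number of LysoDCs in dataset 2: a call on hashtags scaled to their background gave 2921 LysoDCs, of which 680 were among the 681 used and 2241 had been removed as carrying several hashtags. CPM means UMIs (counted molecules) of a gene per 1000000 UMIs of all genes in such a sum. In those 2921 cells Cybb, Cyba, Ncf1, Ncf4 and Rac2 had 1042, 2291, 549, 138 and 24.8 CPM, against 1032, 2339, 546, 131 and 21.2 CPM in the 681 cells used.

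The sums held between 2409391 and 35505429 UMIs, and the median cell had between 2312 UMIs (CD43+ monocytes, dataset 2) and 14279 UMIs (intermediate LysoDCs). The labels were checked against marker genes. C1qa stood at 7366 to 10297 CPM in the LysoDC sums and at 31.6 to 526 CPM in blood, and Ly6c2 at 1288 and 1059 CPM in Ly6C+ monocytes against 2.31 to 116 CPM in the other blood sums. The LysoDC list (7 genes) summed to 57334 to 78783 CPM in the LysoDC sums. It came to 45065 and 37969 CPM in Ly6C+ monocytes and to 4570 to 16260 CPM in other blood sums. Lyz2, a gene of that list, was higher in Ly6C+ monocytes (43348 and 37734 CPM) than in all LysoDCs (35110 and 32547 CPM). The CD43-high monocyte list (7 genes) summed to 4615 and 5018 CPM in CD43+ monocytes and to 471 to 744 CPM in other blood sums. The cDC2 list (7 genes) did not mark the cDC2 gates: it summed to 614 and 561 CPM there, to 608 to 695 CPM in the LysoDC sums, to 347 to 485 CPM in monocytes and to 1329 and 1766 CPM in DN blood cells. Of its genes, Flt3 and Zbtb46 were highest among the patch cells in cDC2s, and Cd209a was lower there (15.1 and 39.1 CPM) than in DN blood cells (489 and 747 CPM). From Ly6c2 in patch cells and the C1q genes in blood cells, foreign RNA was estimated at up to 2.73% of UMIs in LysoDCs, 12.3% in cDC2s and 9.45% in blood cells. These estimates do not cover RNA of cells that lack the gene used. B and plasma cell markers (8 genes) summed to 208 and 238 CPM in LysoDCs and to 21.7 to 56.2 CPM in blood, and neutrophil markers (12 genes) to 152 and 166 CPM in Ly6C+ monocytes and to at most 84.7 CPM elsewhere, with 4 to 9 of the 12 at 0 in each sum. The plasmacytoid dendritic cell list (6 genes) summed to 1162 and 1268 CPM in LysoDCs and to 147 to 442 CPM in blood, and T and NK cell markers (8 genes) to at most 31.6 CPM anywhere. Single genes carried most of 2 of these sums in LysoDCs (dataset 1, then dataset 2). Bst2 stood at 1038 and 910 CPM and Ccr9 at 156 and 158 CPM, but Siglech at 3.89 and 10.6 CPM. In the B and plasma cell list Cd79b stood at 194 and 200 CPM, but Ms4a1 at 2.14 and 0.41 CPM. Within the neutrophil list, S100a8 and S100a9 stayed at or below 19.8 CPM in every sum. In Ly6C+ monocytes Csf3r stood at 82.8 and 86.6 CPM and Mmp8 at 75.7 and 61.6 CPM. Csf3r was also at 80.5 and 83.6 CPM in CD43+ monocytes. The part of neutrophils, B, plasma, T, NK and plasmacytoid dendritic cells in the differences below was not tested, except where leaving out such cells is given.

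The start regions of the membrane and organiser genes are shown because Ncf1 and Cybb went in opposite directions between LysoDCs and monocytes. RefSeq gave promoter windows (GRCm38.p6) for 3 of the 5 genes, Cybb, Cyba and Ncf1. In the GRCm38 gene annotation, Cybb covers X:9435252-9487771, Cyba 8:122424776-122432930, Ncf1 5:134220053-134229625 and Rac2 15:78559167-78572783, all on the minus strand, and Ncf4 covers 15:78244801-78262580 on the plus strand. All 5 are annotated as protein-coding. The RefSeq start of Cybb lies inside the span that this annotation gives the gene. The stretches below are the 150 bases before each RefSeq start, 5′ to 3′ on the gene's strand, with capitals for matches, on either strand, to CCAAT or to the repeat GAAA, any 2 bases, GAAA, which interferon regulatory factors are known to bind.
Ncf1, chr5:134229626-134229775: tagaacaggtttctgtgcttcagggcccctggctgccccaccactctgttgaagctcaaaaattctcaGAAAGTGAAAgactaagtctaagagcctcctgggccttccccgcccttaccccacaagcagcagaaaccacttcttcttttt
Cybb, chrX:9469325-9469474: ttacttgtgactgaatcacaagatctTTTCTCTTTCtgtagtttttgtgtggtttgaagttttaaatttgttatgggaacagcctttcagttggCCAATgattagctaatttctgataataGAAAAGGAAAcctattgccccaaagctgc
Cyba, chr8:122432941-122433090: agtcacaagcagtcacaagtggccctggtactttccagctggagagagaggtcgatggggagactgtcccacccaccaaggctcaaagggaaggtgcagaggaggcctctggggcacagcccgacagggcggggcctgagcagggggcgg

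In the whole windows of 300 bases (250 before to 50 after the start), the GAAA repeat occurred in Cybb 3 times, with the first base at -168, -124 and -29 from the start, and in Ncf1 once, at -82. It occurred in 3.44% of the 32851 RefSeq windows of this length. CCAAT was found in Cybb at -56 and is present in 37.4% of windows. GAGGAA, the core of sites of the myeloid factor encoded by Spi1, was found in Cybb alone of the 3, on the opposite strand at +10, and is present in 28.3% of windows. That match lies in the bases after the Cybb start, shown with the match in capitals.
Cybb, chrX:9469295-9469324: tgttttcatTTCCTCatcagaagaagaagc

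Cyba held none of these letters in its window. These are matches of letters and say nothing about which factor is bound in these cells.

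Cybb, the catalytic subunit gene, was highest in monocytes, intermediate in LysoDCs and DN blood cells, and lowest in cDC2s. It reached 1466 and 1541 CPM in Ly6C+ monocytes (dataset 1, then dataset 2, here and below) and 1817 and 2882 CPM in CD43+ monocytes. LysoDCs had 863 and 1032 CPM and DN blood cells 821 and 592 CPM, and both LysoDC sums lay below all 4 monocyte sums. The CD43+ value of dataset 2 stood apart from that of dataset 1, while the other populations differed less between datasets. Within dataset 1 the 4 LysoDC gates ran from 821 to 969 CPM, with the follicular gate highest, and the cDC2 sums had 363 CPM (immature) and 350 CPM (maturing).

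Fitted across all genes with edgeR's quasi-likelihood test, with dataset as a block and Benjamini-Hochberg adjustment, Cybb was lower in LysoDCs than in CD43+ monocytes by a log2 change of -1.02 ± 0.22 (approximate SE, adjusted p = 0.00286), with the same sign in both datasets. Without the CD43+ sum of dataset 2 that change was -0.66 (adjusted p = 0.0565 by edgeR). Against Ly6C+ monocytes the change was -0.59 ± 0.22 (adjusted p = 0.0425 by the same edgeR test). That call was lost under 11 of the 19 alternatives run, with an adjusted p of up to 0.173, although LysoDCs were lower in each. Against DN blood cells the change was 0.48 ± 0.22 (adjusted p = 0.0888 by edgeR), with ratios of 0.07 and 0.80 on the log2 scale in the 2 datasets. It ran from 0.13 to 0.85 when 1 sum was left out, and it passed without the DN sum of dataset 1 (0.85, adjusted p = 0.00571 by edgeR) and with no filter on low counts (adjusted p = 0.0296 by edgeR).

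DN blood cells, in which the cDC2 markers above were also higher than in monocytes, had less Cybb than either monocyte population in the same edgeR fit. The part of cells with those markers in the DN differences was not tested. The change was -1.07 ± 0.22 (adjusted p = 0.0107) against Ly6C+ monocytes and -1.49 ± 0.22 (adjusted p = 0.000711) against CD43+ monocytes, both by edgeR. Without the Ly6C+ sum of dataset 1, that of dataset 2 or the DN sum of dataset 2, the call against Ly6C+ monocytes was lost, with adjusted p of 0.0559, 0.108 and 0.0729 in edgeR. CD43+ and Ly6C+ monocytes themselves differed by 0.43 ± 0.22 (adjusted p = 0.17 by edgeR), with the CD43+ value higher in both datasets.

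Cyba, whose product stabilises the catalytic subunit, had the smallest fitted changes of the 5 genes between LysoDCs and monocytes. LysoDCs had 2714 and 2339 CPM, Ly6C+ monocytes 2676 and 2232 CPM and CD43+ monocytes 3083 and 2524 CPM, so these ranges overlapped. DN blood cells had 2061 and 1629 CPM, below every LysoDC and monocyte sum, and cDC2s 1538 CPM (immature) and 1821 CPM (maturing). The follicular, immature, intermediate and mature LysoDC gates had 3086, 2907, 2595 and 2324 CPM, a ratio of mature to immature of 0.799 (counting interval 0.783 to 0.816).

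The fitted change of Cyba in LysoDCs was 0.12 ± 0.15 against Ly6C+ monocytes (adjusted p = 0.505 by edgeR). Against CD43+ monocytes it was 0.14 ± 0.15 (adjusted p = 0.45 by edgeR), and with total-count scaling in place of TMM it was -0.15, the sign that the CPM show in both datasets. That change of scaling moved the median of all genes by -0.29 on the log2 scale in this comparison, by 0.20 between CD43+ and Ly6C+ monocytes, by -0.22 between DN blood cells and CD43+ monocytes and by less than 0.1 in the others. Against DN blood cells Cyba was higher in LysoDCs by 0.52 ± 0.15 (adjusted p = 0.0119 by edgeR). That call was lost without the LysoDC sum of dataset 1 or either DN sum, with adjusted p from 0.0607 to 0.0664 in edgeR.

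Among blood cells Cyba passed in no comparison of the edgeR fit. DN blood cells stood at -0.40 ± 0.15 against Ly6C+ monocytes (adjusted p = 0.0963 by edgeR) and at -0.39 ± 0.15 against CD43+ monocytes (adjusted p = 0.0661 by edgeR). These differences passed under 2 and 4 of the 19 alternatives, among them DESeq2 (adjusted p = 0.00118 and 0.000612) and total-count scaling. Between CD43+ and Ly6C+ monocytes the fitted value was -0.01 ± 0.15 (adjusted p = 0.958 by edgeR), while the CPM and total-count scaling (0.19) gave the opposite sign.

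**Figure D1:**
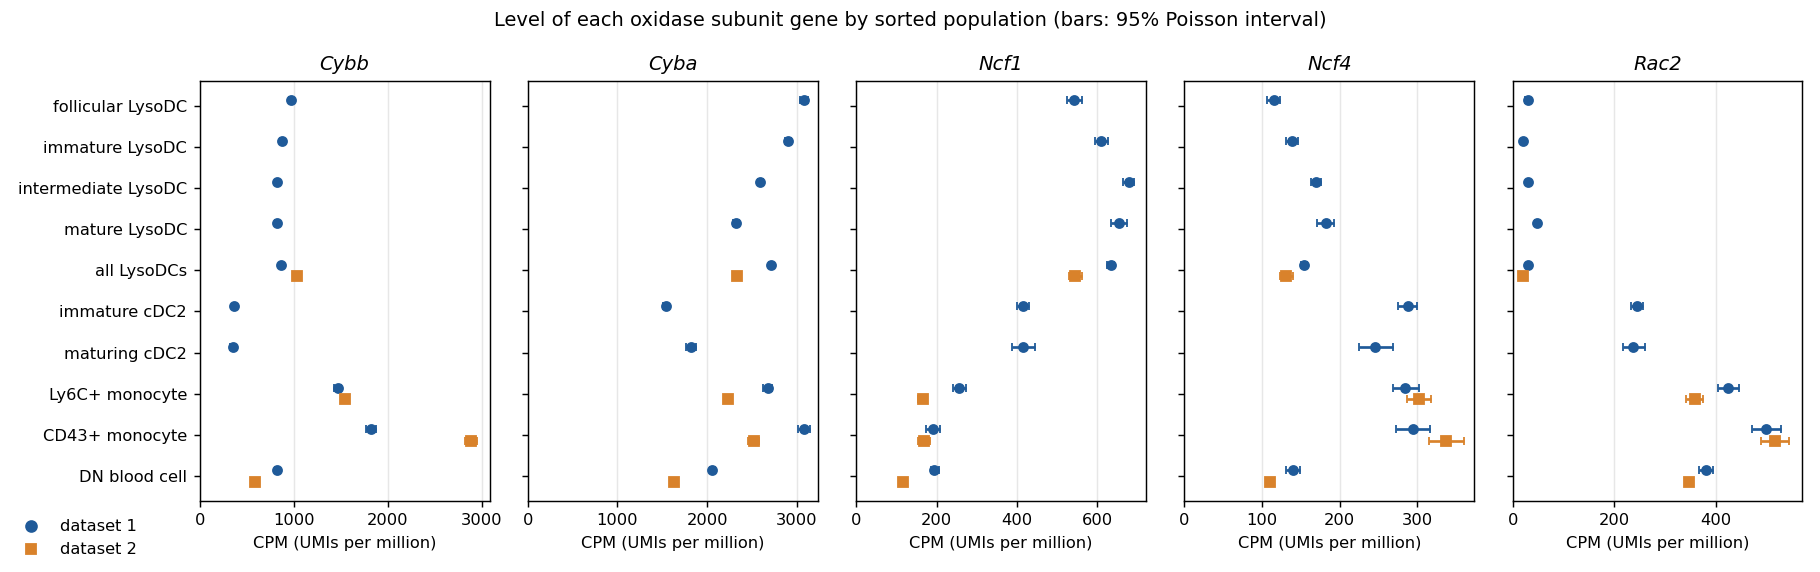
Level of each subunit gene (x axis, CPM, linear from 0, a scale of its own in each panel) by sorted population (y axis), with blue circles for dataset 1, orange squares for dataset 2 and bars for exact 95% Poisson intervals, which cover counting error only. Ncf1 is highest in LysoDCs (546 CPM and above in the totals), Rac2 is lowest there (31.2 and 21.2 CPM), and Cybb is highest in CD43+ monocytes.

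Ncf1, the organiser that bridges the cytosolic subunits to the membrane, was higher in LysoDCs than in monocytes, whereas Cybb was lower in LysoDCs. LysoDCs had 633 and 546 CPM, and the 4 gates of dataset 1 ran from 543 CPM (follicular) to 678 CPM (intermediate). The blood sums were 257 and 166 CPM in Ly6C+ monocytes, 191 and 168 CPM in CD43+ monocytes and 195 and 116 CPM in DN blood cells. Every LysoDC sum lay above every blood sum, with no overlap, and the cDC2s lay between them at 415 CPM (immature) and 416 CPM (maturing).

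The edgeR fit gave Ncf1 log2 changes in LysoDCs of 1.59 ± 0.16 against Ly6C+ monocytes (adjusted p = 1.35e-05), 1.99 ± 0.16 against CD43+ monocytes (adjusted p = 2.8e-06) and 2.03 ± 0.16 against DN blood cells (adjusted p = 2.08e-06). All 3 calls held under each of the 19 alternatives. LysoDC RNA free in the suspension can add Ncf1 to blood cells, and its upper estimate was 40.3 to 47.0 CPM in the blood sums of dataset 1 and 6.56 to 13.4 CPM in those of dataset 2. The 3 blood populations were not separated by Ncf1 in the edgeR fit: the adjusted p was 0.0791 between the monocytes, and 0.0829 and 0.892 when DN blood cells were set against Ly6C+ and CD43+ monocytes.

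Ncf4 encodes the subunit that binds a phosphoinositide of the phagosome membrane, and its level divided the populations differently again. Monocytes were high, at 285 and 301.7 CPM (Ly6C+) and 294 and 337 CPM (CD43+), and so were cDC2s at 287 CPM (immature) and 246 CPM (maturing). LysoDCs had 154 and 131 CPM and DN blood cells 140 and 110 CPM, and these 4 sums lay below all monocyte and cDC2 sums. Inside dataset 1 the LysoDC gates had 115 CPM (follicular), 139 CPM (immature), 169 CPM (intermediate) and 182 CPM (mature), with a mature to immature ratio of 1.31 (counting interval 1.21 to 1.42).

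In the edgeR fit Ncf4 was lower in LysoDCs than in Ly6C+ monocytes by -0.96 ± 0.17 on the log2 scale (adjusted p = 0.000799) and than in CD43+ monocytes by -0.86 ± 0.17 (adjusted p = 0.00153). DN blood cells were lower than Ly6C+ monocytes by -1.23 ± 0.17 (adjusted p = 0.00158 by edgeR) and than CD43+ monocytes by -1.13 ± 0.17 (adjusted p = 0.000655 by edgeR). These 4 calls held under all 19 alternatives. LysoDCs and DN blood cells were not separated (0.27 ± 0.17, adjusted p = 0.199 by edgeR), nor were the 2 monocyte populations (-0.10 ± 0.17, adjusted p = 0.7 by edgeR), where the CPM and total-count scaling gave the opposite sign (0.11).

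Rac2 showed the widest range of the 5 genes. LysoDCs had 31.2 and 21.2 CPM. Ly6C+ monocytes had 425 and 358 CPM, CD43+ monocytes 498 and 516 CPM, and DN blood cells 380 and 347 CPM. Both LysoDC sums lay far below every blood sum, and cDC2s, from the same patches and the same library, had 245 CPM (immature) and 238 CPM (maturing).

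The fitted log2 change of Rac2 in LysoDCs was -3.80 ± 0.20 against Ly6C+ monocytes (adjusted p = 1.77e-07), -3.98 ± 0.20 against CD43+ monocytes (adjusted p = 1.27e-07) and -3.72 ± 0.20 against DN blood cells (adjusted p = 1.84e-07), all by edgeR's quasi-likelihood test. In size, these changes exceeded those of 92.6%, 92.9% and 92.8% of the genes tested. The 3 calls held under all 19 alternatives, between -4.35 and -3.45. The blood populations did not differ from each other in Rac2 past the threshold in the main fit, with an edgeR adjusted p of 0.487 between the monocytes, and of 0.797 and 0.281 when DN blood cells were set against Ly6C+ and CD43+ monocytes. With total-count scaling Rac2 was called lower in DN blood cells than in CD43+ monocytes (-0.49, adjusted p = 0.0291 by edgeR). The CPM ratios were -0.39 and -0.57 on the log2 scale there.

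**Figure D2:**
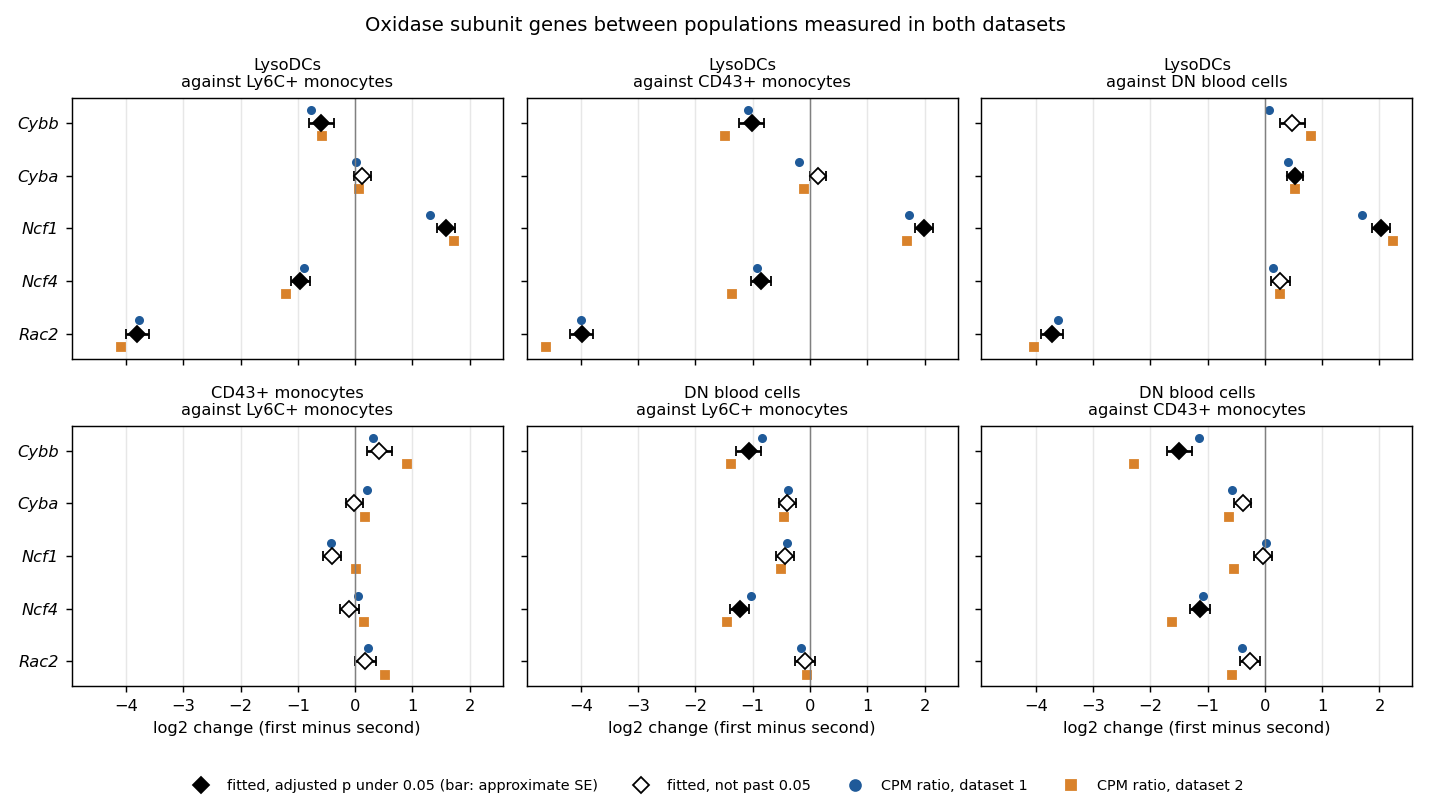
Log2 change of each subunit gene (x axis, first population minus second) in the 6 comparisons measured in both datasets. Diamonds are edgeR fits with approximate SE bars, filled where the adjusted p is under 0.05, and blue circles and orange squares are the CPM ratios of datasets 1 and 2. Rac2 sits between -3.98 and -3.72 and Ncf1 between 1.59 and 2.03 in the LysoDC panels, while the open Cyba diamond against CD43+ monocytes (0.14) has the opposite sign to both CPM ratios.

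Counted together, 4 of the 5 genes passed the threshold between LysoDCs and Ly6C+ monocytes (Ncf1 higher, with Cybb, Ncf4 and Rac2 lower), where 50.7% of the 11458 genes tested passed. Against CD43+ monocytes the same 4 genes passed in the same directions, with 54.9% of all genes passing, and against DN blood cells 3 passed (Ncf1 and Cyba higher, Rac2 lower), with 52.1% of all genes passing. With 5 genes, no test was made of these counts against the shares over all genes, and nothing is read from them about the subunit genes as a group. Between CD43+ and Ly6C+ monocytes none of the 5 passed by edgeR, while 27.9% of all genes did. At an unadjusted p under 0.05 in the edgeR fit, 1 of the 5 passed (Ncf1, lower), and DESeq2 also called none. DN blood cells had 2 of 5 lower than Ly6C+ monocytes (Cybb and Ncf4, with 14.8% of all genes passing) and the same 2 lower than CD43+ monocytes (33.3% of all genes). With total-count scaling 3 and 4 of 5 passed in these last comparisons. The shares of all genes passing under that scaling are not given here, so nothing is read from these counts. The comparisons share populations and are not independent of each other.

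Rac2 was also found in fewer single cells among LysoDCs than in any other population. At full depth 20.2% of LysoDCs in dataset 1 (95% Clopper-Pearson interval 18.7 to 21.8%) and 10.9% in dataset 2 (8.63 to 13.4%) had a Rac2 UMI, although LysoDCs were the deepest cells (median 13104 and 8999 UMIs). Among blood cells the share was 68.2 to 85.9%, at median depths of 2312 to 5920 UMIs. With every cell thinned to 1000 UMIs, Rac2 was found in 3.39% and 2.79% of LysoDCs, 21.6% and 21.1% of immature and maturing cDC2s, and 29.2 to 41.6% of blood cells. No sorted population is known to lack Rac2, so free RNA was judged from other genes: Ly6c2, a Ly6C+ monocyte gene, had a UMI in 2.10% and 0.147% of LysoDCs at full depth. Scaled to Ly6c2, the estimate of free Rac2 RNA was 1.42 to 4.27 CPM in the LysoDC gates of dataset 1 and 0.312 CPM in the LysoDCs of dataset 2, below the levels measured there. Ly6c2 cannot measure RNA from cells that lack it. In dataset 2, Ly6C+ monocytes also shared a library with only part of the LysoDCs. These values therefore set no upper limit on free Rac2 RNA.

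Rac2 was unevenly spread over LysoDCs. In dataset 1, 2166 of 2714 LysoDCs had no Rac2 UMI, 434 had 1 or 2 and 114 had at least 3, and those 114 cells held 50.7% of all Rac2 UMIs of LysoDCs. In dataset 2, 18 of 681 cells had at least 3 and held 56.1%. The cells with at least 3 UMIs carried C1qa at a median of 7646 and 6684 CPM within the cell, against 8860 and 7764 CPM in cells without Rac2. A Flt3 UMI was found in 12.3% and 16.7% of them, against 1.11% and 0.659% of cells without Rac2, and 14.04% of them in dataset 1 and none of the 18 in dataset 2 had 3 or more neutrophil or B and plasma cell markers. These cells were chosen on Rac2 itself, so the values describe them and test nothing.

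Thinned to 1000 UMIs, an Ncf1 UMI was found in 44.8% and 42.6% of LysoDCs, 29.0% and 33.3% of immature and maturing cDC2s and 11.6 to 22.3% of blood cells. Cybb was found in 56.6% and 62.3% of LysoDCs, 74.2 to 91.6% of monocytes, 53.0% and 40.9% of DN blood cells and 28.0% and 29.5% of the cDC2 gates. Ncf4 was found in 13.3% and 10.9% of LysoDCs and 12.2% and 11.6% of DN blood cells, against 25.03 to 27.9% of monocytes. Cyba was found in 76.6 to 93.2% of cells everywhere. At full depth the order of Ncf4 was different, with 77.3% of LysoDCs of dataset 1 above the 66.9% of Ly6C+ monocytes, which goes against the CPM, and no order was read from those shares. As a measure of free RNA in blood cells, C1qa, a LysoDC gene, had a UMI in 83.1 to 85.7% of blood cells of dataset 1 and 15.1 to 28.9% of those of dataset 2 at full depth.

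**Figure D3:**
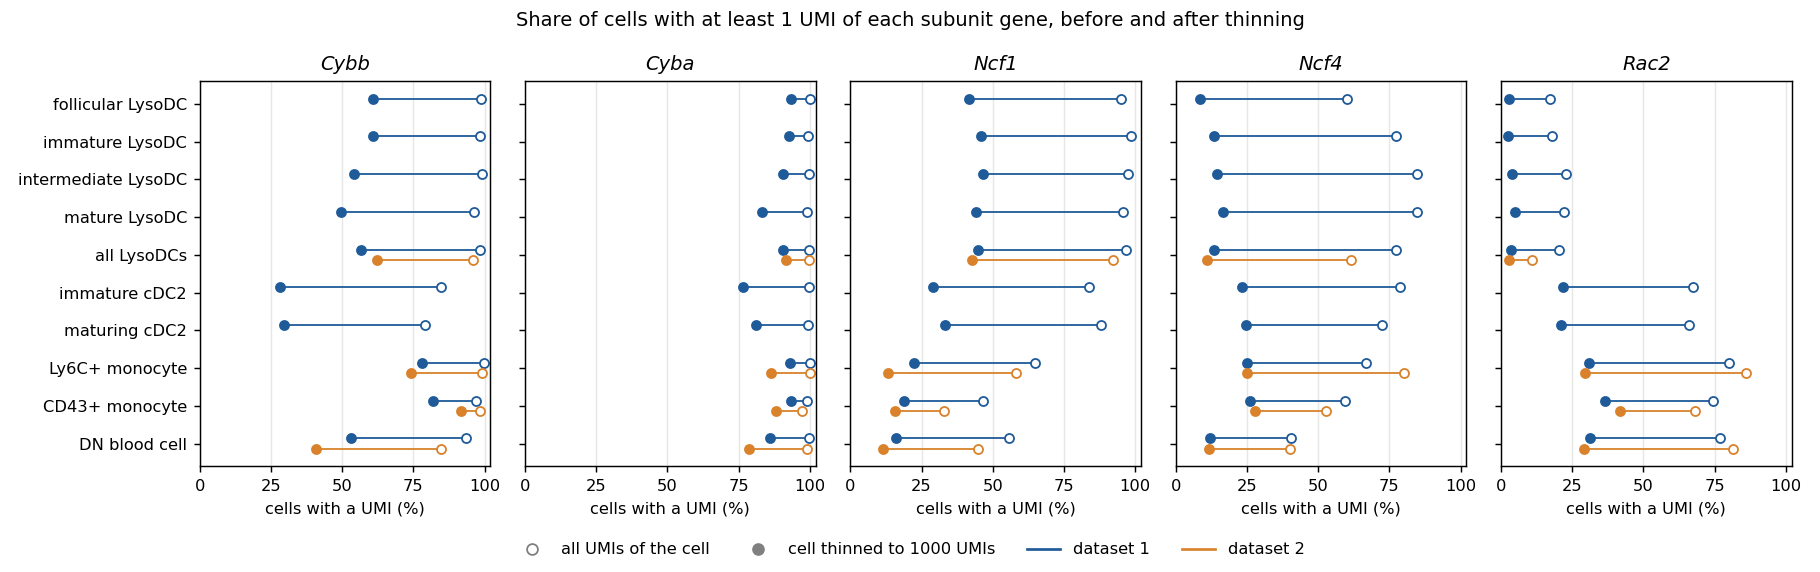
Share of cells with at least 1 UMI of each subunit gene (x axis, percent) by population (y axis), with open circles for all UMIs of the cell, filled circles for cells thinned to 1000 UMIs, blue for dataset 1 and orange for dataset 2. For Rac2 the filled circles of LysoDCs (3.39% and 2.79%) lie far left of those of cDC2s and blood cells (21.1% and above), and for Ncf1 they lie to the right.

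Several subunit genes were found together most often in monocytes. Thinned cells showed a mean of 2.56 and 2.65 of the 5 genes in CD43+ monocytes, 2.50 and 2.28 in Ly6C+ monocytes, 2.08 and 2.10 in LysoDCs, 1.98 and 1.72 in DN blood cells, and 1.78 and 1.90 in immature and maturing cDC2s. At least 4 of the 5 genes were found in 14.5% and 16.7% of CD43+ monocytes and in 12.7% and 9.01% of Ly6C+ monocytes. The share was 3.46% and 3.08% in LysoDCs, 4.89% and 2.62% in DN blood cells, and 3.81% and 8.05% in immature and maturing cDC2s. A cell without Rac2 must show all other 4 genes to be counted here, and the part of Rac2 in the LysoDC value was not tested. The UMIs of all 5 genes together came to a mean of 4.44 and 4.31 per 1000 in LysoDCs, between those of DN blood cells (3.71 and 2.89) and CD43+ monocytes (5.82 and 6.38).

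**Figure D4:**
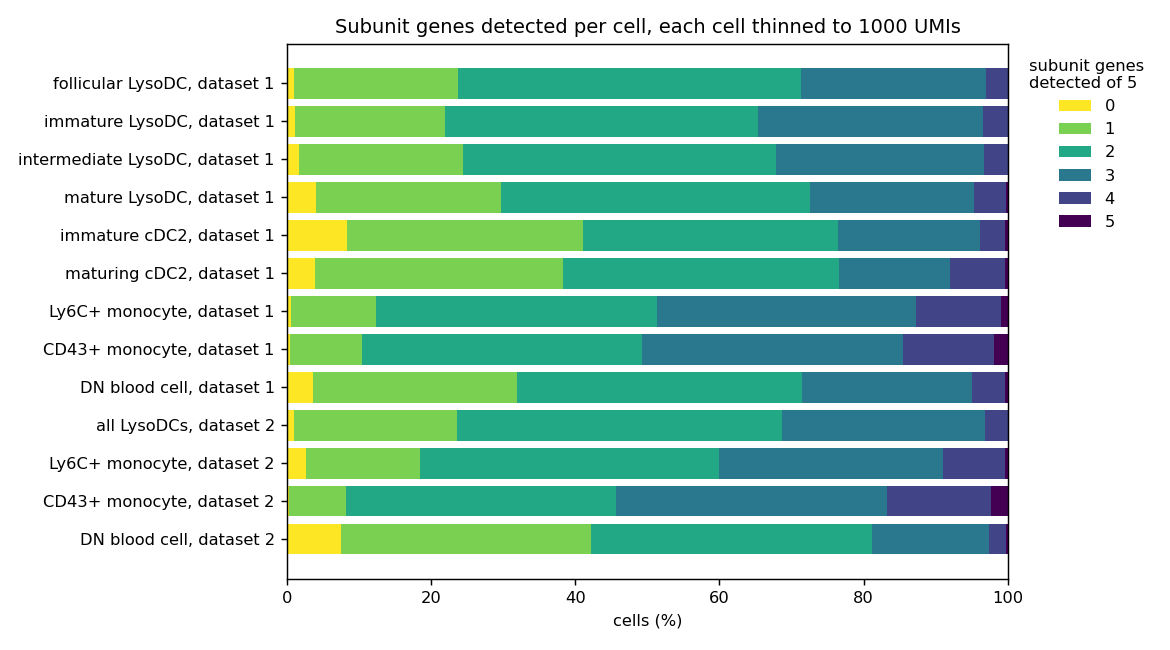
Share of cells (x axis, percent of the population) in which 0 to 5 of the subunit genes had a UMI after thinning each cell to 1000 UMIs, by population and dataset (y axis). The parts for 4 and 5 genes are widest in CD43+ monocytes (14.5% and 16.7% together) and are 3.06% to 4.62% in the LysoDC bars.

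The LysoDC gates of dataset 1 differed most in Rac2 and Ncf4 and least in Cybb. Each gate is 1 sum there, so no test was possible, and a gene was counted as different past a 2-fold ratio with at least 20 CPM in the higher gate. None of the 5 genes was past 2-fold between follicular and immature LysoDCs, where 0.574% of the genes counted were, and the ratios ran from 0.829 (Ncf4) to 1.39 (Rac2). Between mature and immature LysoDCs 1 of the 5 was past 2-fold, with 1.8% of genes counted. This was Rac2, at 48.5 against 21.2 CPM, a ratio of 2.29 (counting interval 1.90 to 2.77). Of the 455 mature LysoDCs, 16 carried 3 or more B and plasma cell markers. Without such cells Rac2 stood at 33.1 CPM against 21.2 CPM in the immature gate, which is no longer past 2-fold. The summed B and plasma cell markers were 323 CPM in the mature gate, 294 CPM in the follicular gate and 217 and 190 CPM in the immature and intermediate gates.

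LysoDCs of dataset 2 were also read by hashtag, which does not tell their gates apart. Their hashtags B0306, B0308 and B0310 (213, 321 and 143 cells) gave Cyba at 2292, 2357 and 2389 CPM, Ncf1 at 542, 546 and 551 CPM, and Rac2 at 24.4, 22.9 and 12.5 CPM. A further hashtag, B0301, had 4 cells. The counting intervals overlapped for Rac2 (18.6 to 31.6, 18.1 to 28.6 and 7.55 to 19.6 CPM).

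Immature cDC2s and immature LysoDCs came from the same patches, digestion and library, so this contrast holds tissue and treatment fixed. Past 2-fold were 3 of the 5 genes, with 23.3% of the genes counted, and each gate is again 1 sum with no test. Rac2 was 11.6 times as high in immature cDC2s (counting interval 9.93 to 13.5) and Ncf4 2.07 times as high (1.93 to 2.22). Cybb was lower in immature cDC2s, at 0.415 of the LysoDC level (0.397 to 0.434), and so were Cyba at 0.529 (0.518 to 0.541) and Ncf1 at 0.679 (0.650 to 0.710), neither of which was past 2-fold. Free RNA in immature cDC2s was scaled to Ly6c2, with all Ly6c2 in these cells taken as foreign. On that reading it came to up to 104 of 363 CPM for Cybb, 299 of 1538 CPM for Cyba and 60.4 of 415 CPM for Ncf1. For Ncf4 and Rac2 it came to up to 22.7 of 287 CPM and 19.0 of 245 CPM. RNA of cells that lack Ly6c2 is not covered. The counting intervals leave free RNA out, and its part in the ratios was not tested. Epithelial markers (7 genes) summed to 403 CPM in immature cDC2s and 3.19 CPM in immature LysoDCs. In immature cDC2s only 2 of these 7 genes were above 5 CPM and 1 was at 0, so the sum does not stand for the whole list. The part of these markers in the ratios was not tested. Between maturing and immature cDC2s none of the 5 was past 2-fold, with 1.98% of genes counted, and the ratios ran from 0.855 (Ncf4) to 1.18 (Cyba).

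The other genes of complex assembly were read from a list of 14, of which 13 were tested. In LysoDCs 2 were higher and 6 lower than in Ly6C+ monocytes, 2 higher and 4 lower than in CD43+ monocytes, and 3 higher and 4 lower than in DN blood cells, with median log2 changes of 0.00, -0.16 and -0.01 (medians of all genes: 0.00, 0.03 and -0.03). Of all genes tested, 50.7%, 54.9% and 52.1% passed in these comparisons in turn. No test was made of such counts, here or for the lists below, and nothing is read from them about a list.

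Rac1, the widely expressed relative of Rac2, differed less than Rac2 between LysoDCs and blood cells. It had 249 and 288 CPM in LysoDCs and 281 to 419 CPM in blood. In LysoDCs it was lower than in Ly6C+ monocytes by -0.50 ± 0.14 (adjusted p = 0.0111 by edgeR). Its changes were -0.06 ± 0.14 and -0.01 ± 0.14 against CD43+ monocytes and DN blood cells (adjusted p = 0.731 and 0.97 by edgeR). Rac1 passed in 3 of the 6 comparisons by edgeR. The others were among blood cells, where Rac2 passed in none in the main fit. Cybc1, whose product helps flavocytochrome b to form, had 44.8 and 55.1 CPM in LysoDCs and 46.6 to 82.0 CPM in blood and passed in none of the 6 comparisons by edgeR. The exchange factors that load Rac proteins with GTP were divided. Vav3 was at 0.8 and 0.5 CPM in LysoDCs against 40.6 to 114 CPM in blood (log2 changes of -6.02, -7.02 and -6.16, adjusted p of at most 2.93e-08 by edgeR). Dock2 was at 75.6 and 77.0 CPM against 150 to 413 CPM (log2 changes of -1.20, -2.10 and -1.10, adjusted p of at most 9.75e-05 by edgeR), whereas Vav1 and Prex1 passed in none of the 3 LysoDC comparisons.

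Hvcn1 encodes the proton channel that balances the charge the oxidase moves. It had 138 and 133 CPM in LysoDCs against 3.0 to 15.0 CPM in the blood sums, with log2 changes of 4.11 ± 0.41, 4.53 ± 0.46 and 4.81 ± 0.40 against the Ly6C+, CD43+ and DN cells in turn (adjusted p of at most 0.000445 by edgeR). Pld1, a phospholipase whose product promotes oxidase activation, was higher in LysoDCs in all 3 comparisons (1.44, 1.19 and 3.29, adjusted p of at most 0.0369 by edgeR) from a low level of 18.7 and 24.98 CPM. Vav1, Prex1 and Hvcn1, and the other oxidases named below, were picked for mention after their values were seen.

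**Figure D5:**
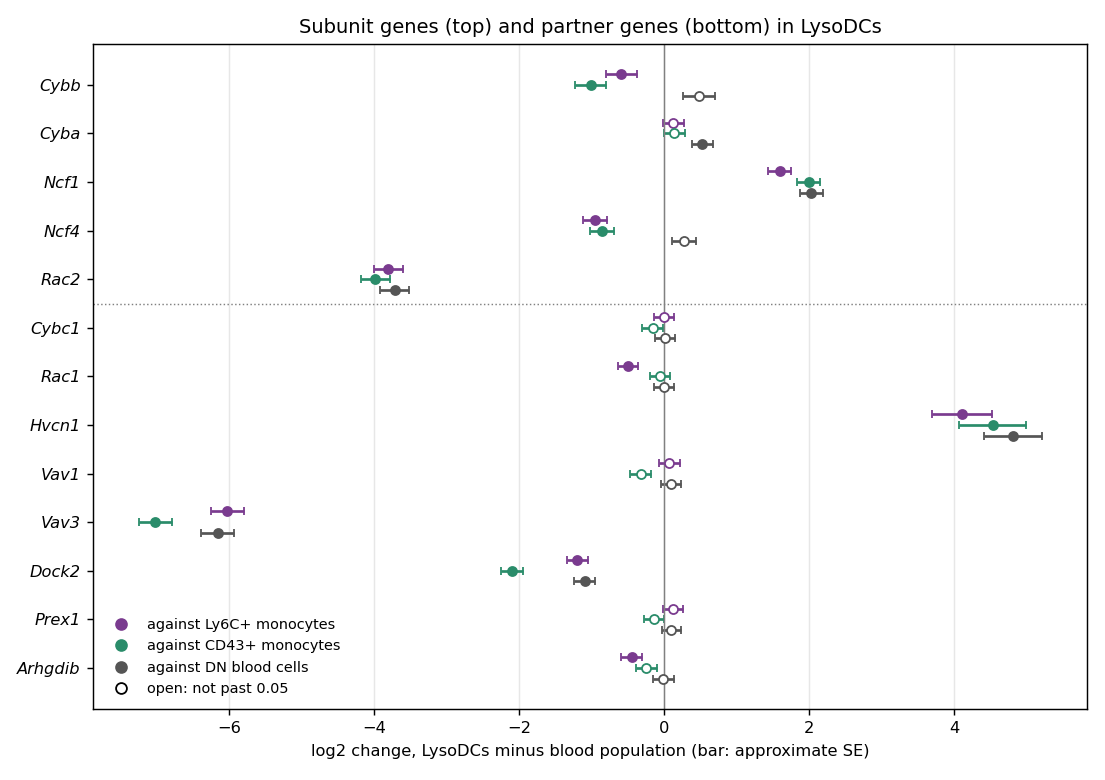
Log2 change (x axis, LysoDCs minus the blood population) of the 5 subunit genes and of 8 partner genes in 3 comparisons (colours), as edgeR fits with approximate SE bars, filled where the adjusted p is under 0.05. Rac2 and its exchange factors Vav3 and Dock2 lie left of 0 and Ncf1 and Hvcn1 right of it. The small positive Cyba value against CD43+ monocytes (0.14) becomes -0.15 with total-count scaling.

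Of 15 kinases that act upstream of the oxidase, all tested, 2 were higher and 6 lower in LysoDCs than in Ly6C+ monocytes, 2 and 9 against CD43+ monocytes, and 4 and 5 against DN blood cells. The shares of all genes passing were 50.7%, 54.9% and 52.1% in turn. Pik3cd, a lipid kinase subunit of leukocytes, was lower in all 3 (-0.87, -1.08 and -0.61, adjusted p of at most 0.0029 by edgeR), and so was Pik3c3, the kinase that makes the lipid bound by the Ncf4 protein (-0.58, -1.22 and -0.43, adjusted p of at most 0.048 by edgeR). Prkcb, a protein kinase C gene, was higher than in Ly6C+ monocytes and in DN blood cells (1.22 and 1.53, adjusted p of at most 9.4e-05 by edgeR) with -0.08 against CD43+ monocytes (adjusted p = 0.667 by edgeR). Pak1 was higher than in CD43+ monocytes (0.61) and lower than in DN blood cells (-2.05, adjusted p = 0.0403 and 8e-06 by edgeR), with -0.34 against Ly6C+ monocytes (adjusted p = 0.172 by edgeR).

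Among 9 transcription factors known to act on oxidase genes, 2 were higher and 3 lower in LysoDCs than in Ly6C+ monocytes, 2 and 3 against CD43+ monocytes, and 3 and 2 against DN blood cells. Over all genes tested the shares passing were 50.7%, 54.9% and 52.1% in turn. Relb was higher in all 3 (2.36, 2.24 and 2.36, adjusted p of at most 7.1e-07 by edgeR) and Nfkb1 lower in all 3 (-1.86, -2.28 and -2.57, adjusted p of at most 2.95e-06 by edgeR). Cebpa was higher in all 3 (0.75, 3.00 and 1.12, adjusted p of at most 0.00608 by edgeR). Cebpd was lower than in Ly6C+ monocytes and in DN blood cells (-1.48 and -0.47, adjusted p = 2.35e-05 and 0.0248 by edgeR), with 0.24 against CD43+ monocytes (adjusted p = 0.248 by edgeR).

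The other NADPH oxidases and their organisers were at or near 0. Of 9 such genes none passed the filter on low counts, 6 had no UMI in any of the 13 sums (Nox3, Nox4, Duox1, Duox2, Duoxa1 and Duoxa2), and Noxo1 reached 2.47 CPM at most. Peroxide-removing and other antioxidant genes (23, of which 21 were tested) had 6 higher and 6 lower in LysoDCs than in either monocyte population, and 10 higher and 5 lower than in DN blood cells. Of all genes tested, 50.7% and 54.9% passed against Ly6C+ and CD43+ monocytes and 52.1% against DN blood cells. Prdx6, a peroxiredoxin whose phospholipase activity is known to aid oxidase activation, was higher in all 3 (2.32, 3.09 and 2.55, adjusted p of at most 5.18e-07 by edgeR), with 825 and 642 CPM against 90.5 to 182 CPM in blood. Gpx4, which reduces lipid peroxides, was higher in all 3 (0.49, 1.74 and 1.28, adjusted p of at most 0.0169 by edgeR), and Prdx4, a peroxiredoxin of the endoplasmic reticulum, was lower in all 3 (-2.74, -0.62 and -2.03, adjusted p of at most 0.0268 by edgeR). Prdx5 was higher than in CD43+ monocytes and DN blood cells (1.13 and 2.16, adjusted p of at most 0.00523 by edgeR), with 0.11 against Ly6C+ monocytes (adjusted p = 0.749 by edgeR).

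Genes that supply NADPH (10, of which 9 were tested) had 1 higher and 4 lower in LysoDCs than in Ly6C+ monocytes, 2 and 3 against CD43+ monocytes, and 5 and 2 against DN blood cells. The shares over all genes tested were 50.7%, 54.9% and 52.1% in turn. Idh2, the mitochondrial NADPH-making isocitrate dehydrogenase, was higher in all 3 (1.68, 3.31 and 2.14, adjusted p of at most 2.95e-06 by edgeR). G6pdx, the first enzyme of the pentose phosphate pathway, was lower than in Ly6C+ and CD43+ monocytes (-0.57 and -0.55, adjusted p of at most 0.00404 by edgeR), with 0.15 against DN blood cells (adjusted p = 0.324 by edgeR). Pgls, the next enzyme of that pathway, was lower than in Ly6C+ monocytes and DN blood cells (-0.44 and -0.56, adjusted p of at most 0.0197 by edgeR), with 0.26 against CD43+ monocytes (adjusted p = 0.134 by edgeR). Idh1, the cytosolic isocitrate dehydrogenase, was lower than in Ly6C+ monocytes and higher than in DN blood cells (-0.93 and 0.77, adjusted p of at most 0.0322 by edgeR), with -0.11 against CD43+ monocytes (adjusted p = 0.731 by edgeR).

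Over the 13 sums (9 of dataset 1 and 4 of dataset 2), each subunit gene had its own set of most similar genes among 6786 candidates, by Pearson correlation of log2(CPM + 1). The sums share libraries, mice and depth, so these values describe likeness and carry no p. Rac2 was most like Rasgrp4 (0.994), Zfp277 (0.9901) and Ebi3 (0.989). Ncf1 was most like Cep70 (0.992), Hvcn1 (0.988) and Il1rn (0.984). Cybb was most like Tlr7 (0.973), Laptm4a (0.970) and Daglb (0.968), Cyba like Myo7a (0.939), Ly6e (0.929) and Vps13c (0.923), and Ncf4 like Dusp1 (0.947), Prorsd1 (0.934) and Ostf1 (0.928). Among the subunit genes themselves, the pair most alike was Cybb and Cyba (0.68), and the pair most opposed was Ncf1 and Rac2 (-0.86). Cyba and Ncf4 were unrelated in this sense (-0.02).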

How the data were processed

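Per the file headers, the authors' matrices are unnormalized: whole UMI counts of genes and of hashtags for every barcode. These headers name Cell Ranger 6.0.1. The submitters' processing notes instead list Cell Ranger 2.0.0 and mm10. The 4 libraries of dataset 2 share 1 matrix and could not be separated.

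The 5 genes and the 17 gene lists were chosen with earlier results of these data known. Hashtags were called with HTODemux (Seurat 5.3.0, positive quantile 0.99), with barcodes in the deposited order. Of 11878 and 13111 barcodes, 8343 and 8516 carried 1 hashtag, and barcodes with several (2422 and 4572) were removed as doublets. Barcodes under 1000 UMIs or 500 genes, or over 10% mitochondrial, were dropped, leaving 7217 and 7470 cells. The matrices shared 37 barcode sequences. Raw counts were summed per population and dataset, and 8 sums were fitted in edgeR 4.0.16 (TMM, filterByExpr, robust quasi-likelihood, dataset as a block, 3 residual degrees of freedom). P-values are two-sided and adjusted over 11458 genes within each comparison (threshold 0.05). The block takes out the mean difference between the 2 datasets. The spread behind each p is what remains, shared by all populations fitted and moderated across genes (median prior degrees of freedom 7.65). The approximate SE is the size of the change divided by the root of F. The procedure was tested on simulated data. Shares have exact Clopper-Pearson and CPM exact Poisson 95% intervals, which cover counting error only.

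Every subunit gene was named in every comparison. From each list up to 4 genes were named, those called in the most comparisons, with Cybc1 and Rac1 always. Exceptions are marked as such, and 1 gene that the rule names is not reported here. Estimates of free RNA compared genes foreign to a population (Ly6c2 for patch cells, the C1q genes for blood cells) with the pooled profile of the dataset. They do not cover RNA of cells that lack those genes. Alternatives were DESeq2 1.42.0, other scalings, filters, hashtag calls and cell filters, the fit without the block, and leaving out each sum. Total-count scaling and reversed barcode order were added after seeing the data.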

Additional observations from a re-analysis of the deposited data

Results flagged for a closer look

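Ncf1 changed sign between datasets in 2 comparisons among blood cells. Between CD43+ and Ly6C+ monocytes the log2 ratio of CPM was -0.43 in dataset 1 and 0.0213 in dataset 2. Between DN blood cells and CD43+ monocytes it was 0.0270 in dataset 1 and -0.54 in dataset 2. Each dataset has 1 sum per population, so the difference between datasets was not tested. The upper estimate of free Ncf1 RNA in these populations was 40.3 to 47.0 CPM in dataset 1 and 6.56 to 13.4 CPM in dataset 2, and its part in the change of sign was not tested.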

How the results depend on the processing

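Over 19 alternatives for each of the 30 subunit-gene changes, 530 values kept their direction and call, 18 lost the call, 11 gained one and 11 changed sign, the last all among changes that were not called. Total-count scaling reversed Cyba in LysoDCs against CD43+ monocytes (-0.15) and Cyba (0.19) and Ncf4 (0.11) in CD43+ against Ly6C+ monocytes, and strict cell filters also reversed that Cyba value (0.0302). Leaving out 1 sum took that Cyba change from -0.0884 to 0.0519, that Ncf4 change from -0.276 to 0.0735, Rac2 in DN blood cells against Ly6C+ monocytes from -0.183 to 0.00241 and Ncf1 in DN blood cells against CD43+ monocytes from -0.196 to 0.125.

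Counts of called genes moved most when 1 sum was left out. They ran from 1322 to 3597 between CD43+ and Ly6C+ monocytes, from 310 to 2253 between DN blood cells and Ly6C+ monocytes (963 without the replicate block) and from 1538 to 3910 between DN blood cells and CD43+ monocytes. Fewer sums were fitted there, and no other cause was tested. Subunit genes called between DN blood cells and Ly6C+ monocytes ran from 1 to 2. Free-RNA subtraction called 1 of 5 (Ncf1) between CD43+ and Ly6C+ monocytes. Total-count scaling called 4 of 5 between DN blood cells and CD43+ monocytes, and 3 of 5 were called against Ly6C+ monocytes by DESeq2, total-count scaling or adjustment over the 6 comparisons. The shares of all genes called under these settings and under free-RNA subtraction are not given here. Nothing is therefore read from these counts about the subunit genes as a group. Without cells carrying 3 or more neutrophil or B and plasma cell markers, 0 of 5 were past 2-fold between mature and immature LysoDCs. The cause of these shifts was not tested.

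The scaled hashtag call, with 2921 in place of 681 LysoDCs in dataset 2, lost 1 call (Cybb in LysoDCs against Ly6C+ monocytes, -0.56). The hashtag call depended on barcode order. Of the barcodes that passed the cell filters, 94.7% in dataset 1 and 97.4% in dataset 2 kept their population, or had none again, when the order was reversed. The CPM of the 5 genes in dataset 1 then came to 0.917 to 1.02 times the values given.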
